A study of Homo sapiens with 9 samples.

Results

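The S phase and DNA replication genes described here are 40 genes whose transcripts peak while a cell copies its DNA, a list in common use for scoring S phase in single cells. They were found by their gene symbol among the 26485 gene models of the count files, and all 40 were present, had at least 1 count in each of the 9 libraries and entered every test. Total RNA of HAP1 was isolated with NAxtra magnetic nanoparticles after flow sorting, and libraries were made with a stranded SMART-Seq kit from 1 cell (3 libraries) and from 10, 100 and 1000 cells (2 libraries each). HAP1 is a near-haploid human line derived from chronic myeloid leukaemia cells that grows attached to the dish. All libraries were wild type and untreated, and differ by label only in cell number, so the question asked of each gene was whether its level in single cells departed from that in libraries of more cells. The labels call the libraries biological replicates without saying whether they came from separate cultures, so p-values measure the spread between these libraries, which may be partly technical.

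Replication begins with the loading of the MCM2-7 helicase at origins by ORC, CDC6 and CDT1. CDC45 and GINS then switch the helicase on, polymerase alpha and primase lay down primers, and PCNA, loaded by clamp loaders, tethers the replicative polymerases. Ribonucleotide reductase and thymidylate synthase supply the nucleotides, histone chaperones package the new DNA, and E2F factors, released as cyclin E activity rises at the end of G1, switch on many of these genes together. A cycling population holds cells in and out of S phase, so in the libraries of 10 or more cells a larger share of expressing cells and more RNA per cell cannot be told apart.

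Total counts ranged from 42842970 to 61645865 per library, and the lowest count of any S phase gene was 225, for CCNE2 in Single Cell Rep 3. These are reads without molecular identifiers, so they do not show how many RNA molecules of a cell were sampled. Between 13968 and 14478 genes were detected in single cells and between 16283 and 18634 in the other libraries. Short structured RNAs summed to between 42690 and 47850 CPM (counts per 1000000, by TMM-scaled library sizes) in single cells and to between 36590 and 41620 CPM in the others, and their part in the results was not tested. Although HAP1 derives from leukaemia cells, blood cell markers were nearly absent: of 8 markers MPO, GATA1, HBG1 and CSF3R were at 0 in every library, and the sum lay between 0 and 0.157 CPM in single cells and between 0 and 1.38 CPM in the others. Of 8 fibroblast markers DCN, LUM and FAP were at 0 throughout and PDGFRA made up most of a sum of 53.8 to 171 CPM in single cells and 121 to 144 CPM in the others. Of 8 plasma cell markers TNFRSF17 was at 0 and SDC1 made up most of a sum of 42.6 to 61.9 CPM in single cells and 46.9 to 54.6 CPM in the others.

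The promoters of the S phase genes are shown first because several carry the same short word, the E2F site. RefSeq promoters of build GRCh38.p14, from 250 bases before to 50 bases after the transcription start, were available for 31 of the 40 genes and were searched on both strands for TTTCCCGC, TTTCGCGC, TTTGCCGC and TTTGGCGC. A match was present in 15 of the 31 promoters (48.4%), in 21 of 64 promoters of other replication genes (32.8%), in 3 of 44 promoters of G2/M phase genes (6.82%), in 5.22% of 10901 promoters of tested genes and in 3.33% of all 27305 promoters of the table. The 15 genes were MCM2, MCM6, CDC6, GINS2, POLA1, PCNA, TYMS, CLSPN, DTL, EXO1, CASP8AP2, UHRF1, HELLS, CDCA7 and UBR7. For UHRF1 the RefSeq start lay 6421 bases from the start of the gene model in the count files, and for TIPIN, counted without a match, 30001 bases. The 5 promoters below belong to genes whose levels are followed through the single cells. Each runs 5′ to 3′ on the strand of its gene, with matched bases in capitals.

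MCM6 (chr2:135876394-135876693, minus strand): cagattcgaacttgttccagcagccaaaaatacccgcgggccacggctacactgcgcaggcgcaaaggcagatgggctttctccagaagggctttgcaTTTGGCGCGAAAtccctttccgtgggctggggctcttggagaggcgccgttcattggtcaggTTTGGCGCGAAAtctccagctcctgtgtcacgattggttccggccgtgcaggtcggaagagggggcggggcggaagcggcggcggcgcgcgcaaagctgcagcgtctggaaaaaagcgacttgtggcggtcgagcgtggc
CDC6 (chr17:40287629-40287928, plus strand): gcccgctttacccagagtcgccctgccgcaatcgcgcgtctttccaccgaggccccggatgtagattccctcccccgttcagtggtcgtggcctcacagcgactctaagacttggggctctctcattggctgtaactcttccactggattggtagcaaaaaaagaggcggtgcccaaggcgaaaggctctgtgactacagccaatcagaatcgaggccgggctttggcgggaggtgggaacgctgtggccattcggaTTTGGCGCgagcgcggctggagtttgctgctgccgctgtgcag
GINS2 (chr16:85688905-85689204, minus strand): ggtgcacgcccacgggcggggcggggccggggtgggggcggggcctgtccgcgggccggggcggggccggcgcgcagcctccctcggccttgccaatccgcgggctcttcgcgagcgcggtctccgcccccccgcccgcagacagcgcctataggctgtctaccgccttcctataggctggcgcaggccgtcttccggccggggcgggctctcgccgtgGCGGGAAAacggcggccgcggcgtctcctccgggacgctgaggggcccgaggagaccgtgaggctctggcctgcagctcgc
EXO1 (chr1:241847954-241848253, plus strand): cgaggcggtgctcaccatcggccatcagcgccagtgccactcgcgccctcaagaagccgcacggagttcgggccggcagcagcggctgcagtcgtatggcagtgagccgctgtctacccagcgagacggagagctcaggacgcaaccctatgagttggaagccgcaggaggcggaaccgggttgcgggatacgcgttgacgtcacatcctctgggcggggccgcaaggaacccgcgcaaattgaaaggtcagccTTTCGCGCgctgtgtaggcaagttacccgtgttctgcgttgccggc
CASP8AP2 (chr6:89829630-89829929, plus strand): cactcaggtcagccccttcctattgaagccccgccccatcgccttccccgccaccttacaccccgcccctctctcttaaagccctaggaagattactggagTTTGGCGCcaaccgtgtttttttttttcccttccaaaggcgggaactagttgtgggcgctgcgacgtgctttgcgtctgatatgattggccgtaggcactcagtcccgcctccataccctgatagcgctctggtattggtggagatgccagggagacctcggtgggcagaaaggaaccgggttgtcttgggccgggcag

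MCM6 held 4 matches, which form 2 overlapping pairs on opposite strands, while the other 4 promoters shown held 1 match each. In GINS2 the capitals are the reverse complement of a searched word. In CDC6 and EXO1 the match begins at positions 8 and 5, counted from 1 at the start. The promoters of NASP and CHAF1B held no match, which says only that these words are not in those windows.

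Per unit of transcript length, NASP was the S phase gene of highest level and CCNE2 the lowest. Over the 6 libraries of 10, 100 and 1000 cells, NASP, a histone chaperone, stood at 246 ± 9.71 RPKM (counts per kilobase of exon and per library size of 1000000 counts, SD, n = 6). RRM2, the regulated subunit of ribonucleotide reductase, followed at 151 ± 9.47 RPKM. The next 3 levels, of PCNA (135 ± 7.56 RPKM), MCM4 (135 ± 4.57 RPKM) and TYMS (131 ± 9.69 RPKM), did not differ beyond their spread, and MCM2 came after them at 119 ± 6.61 RPKM. At the low end were BRIP1, a helicase of DNA repair, at 9.63 ± 0.465 RPKM, and CCNE2, cyclin E2, at 7.19 ± 1.41 RPKM. UBR7 was listed at 9.52 ± 0.601 RPKM, but its gene model lies both on chromosome 14 and on an alternate scaffold of it, so its level per length is uncertain.

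NASP was the only S phase gene that differed between the 3 single cells and the 6 libraries of more cells in edgeR's quasi-likelihood test. It lies at chr1:45583988-45618906 on the plus strand of hg38. Its level was 623, 630 and 591 CPM in the 3 single cells. In the other libraries it was 781 and 834 CPM for 10 cells, 855 and 811 CPM for 100 cells, and 769 and 805 CPM for 1000 cells, so all 3 cells lay below all 6 libraries and the cells were close to each other. The log2 fold change was -0.40 (SE 0.0574, Benjamini-Hochberg adjusted p = 0.0131 over 15603 genes). Thus 1 of 40 S phase genes was called lower, where 4.45% of all tested genes were, and 0 were called higher, where 2.22% of all were.

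The call of NASP depended on single libraries of more cells although its size did not. Its adjusted p was 0.0569 without 100 Cell Rep 2, 0.0540 without 1000 Cell Rep 1 and 0.0565 without 1000 Cell Rep 2. In those 3 fits edgeR called 0 of all genes, and the log2 fold change over all fits that left out a library stayed between -0.42 and -0.37. The test assumes 1 spread per gene in both groups, whereas 36 of the 40 genes, NASP not among them, spread more between single cells. With each of the 4 cell numbers as its own group, edgeR gave NASP an adjusted p of 0.0973 and called 0 of all genes.

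No other S phase gene passed the test. At an unadjusted p under 0.05 there were 2 genes with higher and 6 with lower levels, which is 5% and 15% of the list, beside 10.8% and 13.8% of all tested genes. The median log2 fold change of the 40 genes was -0.10, with 26 of 40 below 0 (65%), and that of all tested genes was 0.01, with 48.8% below 0. This median rested on which cell was included: it was 0.0057 without Single Cell Rep 1 (all tested genes -0.04) and -0.19 without Single Cell Rep 2 (all tested genes -0.04). The genes nearest to the threshold were EXO1, an exonuclease of mismatch repair and end resection (log2 fold change 0.36, adjusted p = 0.0765), POLA1, the catalytic subunit of polymerase alpha (-0.29, adjusted p = 0.0828), CLSPN, the checkpoint adaptor claspin (-0.22, adjusted p = 0.0921), and CCNE2 (-1.02, adjusted p = 0.0956). EXO1 was above all 6 libraries in all 3 cells, in Single Cell Rep 3 only narrowly (115.2 CPM beside at most 115.0 CPM), which held for 2.5% of the list and 4.98% of all tested genes. NASP, CLSPN, CCNE2 and WDR76 were below all 6 in all 3 cells, 10% of the list beside 10.0% of all.

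How many genes were called changed with the single cell left out. Without Single Cell Rep 1, 3 S phase genes were called higher and 4 lower, beside 6.96% and 10.9% of all tested genes. Without Single Cell Rep 2, 0 were called higher and 12 lower, beside 8.48% and 11.3% of all. Those 12 were MCM4, MCM5, MCM6, CDC6, CLSPN, TIPIN, NASP, UHRF1, HELLS, ATAD2, CCNE2 and E2F8, so they included 3 of the helicase subunits and the loader CDC6. MCM4, MCM6, CDC6, TIPIN, UHRF1 and ATAD2 lay above all 6 libraries in the cell left out, so their calls depend on which cell was dropped. Without Single Cell Rep 3, 2 were called higher and 3 lower, beside 5.99% and 8.97% of all.

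Against the 1000-cell libraries alone, 0 S phase genes passed edgeR's test at any cell number, and 0% of all tested genes did. At an unadjusted p under 0.05 there was 1 S phase gene for single cells (NASP), 4 for 10 cells and 0 for 100 cells, among 1218, 1735 and 314 of all tested genes. For single cells this was 0% of the list higher and 2.5% lower, beside 2.12% and 5.79% of all. For 10 cells it was 2.5% higher and 7.5% lower, beside 5.57% and 5.66% of all. For 100 cells it was 0% in both directions, beside 1.11% and 0.904% of all. DESeq2 called NASP between single cells and 1000 cells (adjusted p = 0.0465) and 0 S phase genes in the other 2 comparisons. The 4 genes at 10 cells were DSCC1 (log2 fold change -0.36), E2F8 (0.25), BLM (-0.21) and PRIM1 (-0.25), with adjusted p between 0.333 and 0.388. These counts rested on pairs of libraries: 10 cells against 1000 cells gave 4 higher and 6 lower without 10 Cell Rep 1 and 2 higher and 14 lower without 10 Cell Rep 2, and 100 cells against 1000 cells gave 3 higher and 13 lower without 100 Cell Rep 2. In each of those fits 1 library is left in a group and is assumed to vary like the other group, and 25.7%, 29.5% and 30.4% of all tested genes were called.

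The single cells did not share a common departure, as each cell's difference from the mean of the 6 libraries showed. The median difference of the 40 genes in log2 CPM was -0.24 in Single Cell Rep 1, 0.12 in Single Cell Rep 2 and -0.17 in Single Cell Rep 3. The same medians over the 9759 tested genes at 10 CPM or more were -0.01, -0.01 and -0.02, and each of the 6 libraries, set against the other 5, had a median of its S phase genes between -0.06 and 0.05 (SD 0.0502). Differences were above 0 for 9, 25 and 13 of the 40 genes in the 3 cells (22.5%, 62.5% and 32.5%). Over all tested genes they were above 0 for 45.55%, 44.94% and 44.31%, shares that also apply beside the counts by role below. There is 1 library per cell, so these differences carry no test.

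**Figure D1:**
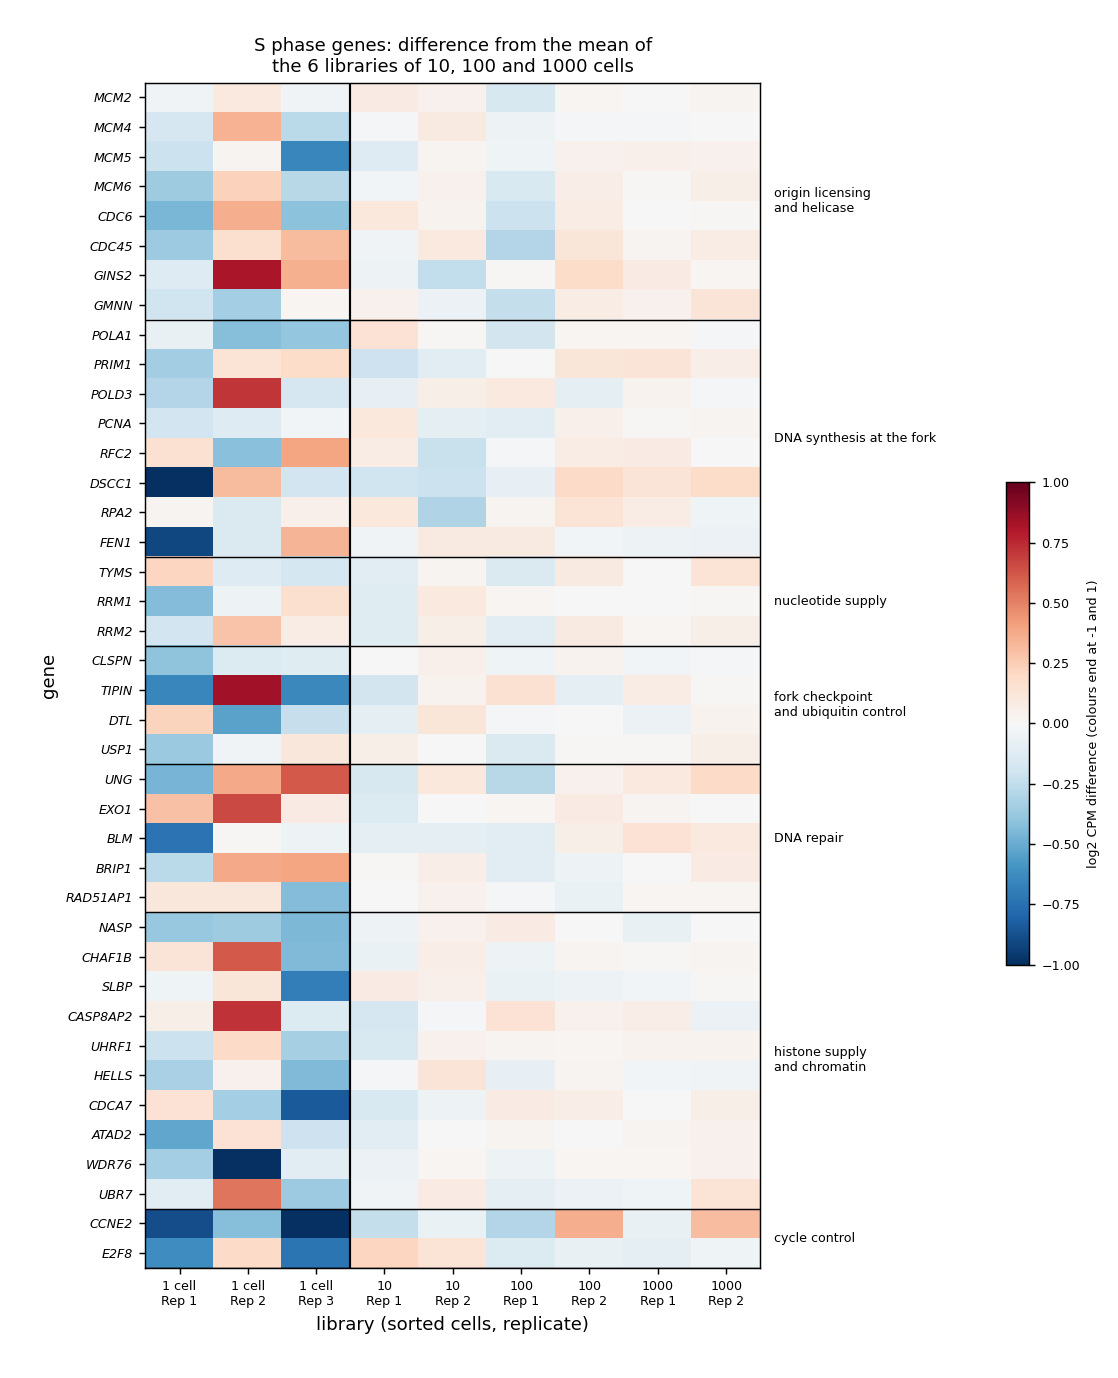
Difference in log2 CPM of each of the 40 S phase genes (rows, by role) from the mean of the 6 libraries of 10, 100 and 1000 cells, in all 9 libraries (columns); red is higher, blue is lower, and colours end at -1 and 1. Single Cell Rep 2 is mostly red among the origin licensing genes and Single Cell Rep 1 and Rep 3 mostly blue, while the 6 libraries to the right of the line are mostly pale, CCNE2 less so than the others.

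A gene was said to stand apart in a cell when it lay outside the range of the 6 libraries and differed by more than 0.5 in log2 CPM from their mean. In Single Cell Rep 1, 0 S phase genes stood apart above and 7 below, where 19.2% and 25.0% of all tested genes did. In Single Cell Rep 2, 7 stood apart above and 2 below, beside 18.2% and 25.6% of all. In Single Cell Rep 3, 1 stood apart above and 6 below, beside 21.0% and 29.6% of all. Among all tested genes at 10 CPM or more the shares were lower, from 13.4% to 17.3% above and from 16.2% to 20.9% below. Of the 40 genes, 21 stood apart in no cell (52.5%, beside 25.6% of all tested genes) and 16 in 1 cell (40%, beside 29.6%). CCNE2 and E2F8 stood apart in 2 cells (5%, beside 25.6%) and TIPIN in all 3 (2.5%, beside 19.3%).

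The 8 listed genes of origin licensing and the helicase lay mostly on the same side in 2 of the cells. In Single Cell Rep 1 0 of 8 differences were above 0, with a median of -0.21, in Single Cell Rep 2 7 of 8 were, with a median of 0.20, and in Single Cell Rep 3 3 of 8 were, with a median of -0.15. The 18 other genes of this role, outside the list, did not share the side of Single Cell Rep 1: 9, 12 and 6 of 18 were above 0, with medians of 0.01, 0.15 and -0.10. CDC6, which recruits the helicase to origins, was at 109, 192 and 112 CPM in the cells and at 128 to 161 CPM in the 6 libraries, differences of -0.46, 0.36 and -0.41. It lay outside the range of the 6 libraries in every cell. GINS2, a subunit of the active helicase, was at 64.2, 123 and 89.6 CPM beside 59.1 to 79.7 CPM, and stood apart above in Single Cell Rep 2 by 0.81. Its partners did not follow, as GINS1, GINS3 and GINS4 gave -0.04, -0.25 and -0.09 in that cell. CDC45 was at 76.5, 110 and 122 CPM beside 80.2 to 107 CPM, and GMNN, the inhibitor of CDT1, at 79.2, 72.0 and 92.3 CPM beside 77.3 to 99.7 CPM. GMNN was thus the only one of the 8 listed genes of this role below the mean of the 6 libraries in Single Cell Rep 2.

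Within the MCM2-7 ring the subunits differed in how far they moved. MCM4 was at 588, 841 and 550 CPM in the cells and at 638 to 705 CPM in the 6 libraries, differences of -0.17, 0.35 and -0.27. MCM6 gave differences of -0.36, 0.23 and -0.28. For both, Single Cell Rep 2 lay above and the other two cells below all 6 libraries. MCM5 was at 154, 182 and 114 CPM beside 163 to 185 CPM, and in Single Cell Rep 3 it stood apart below by -0.65. MCM2 stayed near the mean in all 3 cells, with differences of -0.03, 0.10 and -0.04. The subunits outside the list gave -0.26, -0.16 and -0.19 for MCM3 and 0.09, -0.03 and -0.07 for MCM7. Over the 6 subunits the median was -0.19, 0.07 and -0.23, with 1, 4 and 0 of 6 above 0. Per length, the ratio of MCM4 to MCM5 was 1.84 to 2.08 in the 6 libraries and 1.98, 2.39 and 2.51 in the cells.

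**Figure D2:**
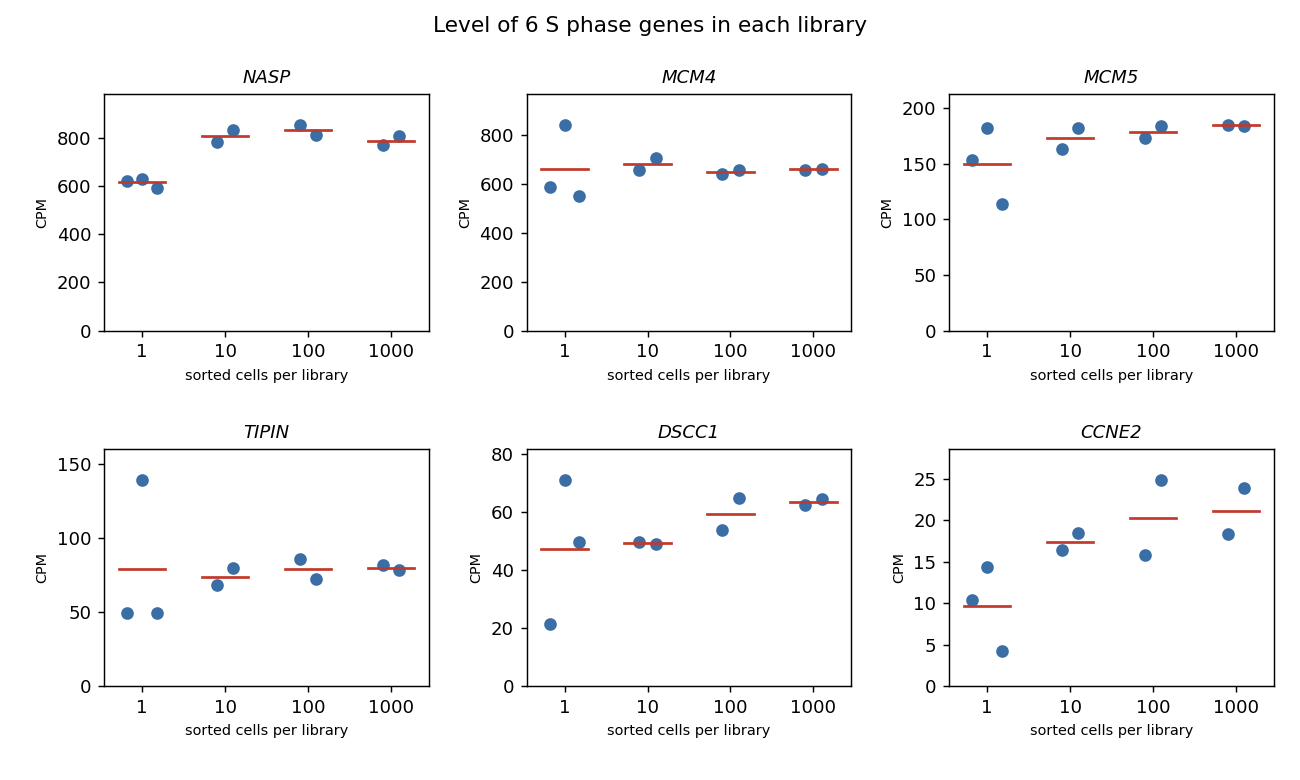
Level in CPM (vertical axis, from 0) of NASP, MCM4, MCM5, TIPIN, DSCC1 and CCNE2 in each library, by the number of sorted cells (horizontal axis); points are libraries and red lines group means. The 3 single cells are close together and low for NASP (591 to 630 CPM) and far apart for TIPIN (49.2 to 139 CPM) and DSCC1 (21.4 to 71.1 CPM).

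Of the 8 listed genes of DNA synthesis at the fork, 2, 3 and 4 differences were above 0 in the 3 cells, with medians of -0.24, -0.13 and 0.01. Of 20 other genes of this role, 10, 12 and 7 were above 0, with medians of 0.05, 0.11 and -0.18, so the role as a whole showed no common direction. DSCC1, a subunit of a clamp loader, was at 21.4, 71.1 and 49.9 CPM in the cells and at 49.2 to 65.0 CPM in the 6 libraries, and FEN1, the flap endonuclease that trims Okazaki fragments, at 100, 171 and 239 CPM beside 181 to 201 CPM. Both stood apart below in Single Cell Rep 1, by -1.42 and -0.91, and FEN1 lay above all 6 libraries in Single Cell Rep 3. POLD3, a polymerase delta subunit, was at 50.7, 102 and 55.3 CPM beside 58.2 to 66.5 CPM, and stood apart above in Single Cell Rep 2 by 0.71.

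The genes of polymerase alpha and primase did not move together. POLA1 gave differences of -0.08, -0.42 and -0.39 and PRIM1, the small primase subunit, -0.35, 0.14 and 0.19. Outside the list, POLA2 gave 0.11, -0.09 and -0.20 and PRIM2, the large primase subunit, -0.57, 0.40 and -0.78. The primase subunits thus lay on opposite sides of the mean in Single Cell Rep 3. Over the 4 subunits, 1, 2 and 1 differences were above 0. Per length, the ratio of POLA1 to PRIM1 was 1.16 to 1.67 in the 6 libraries, 1.58 in Single Cell Rep 1 and 0.886 and 0.878 in the other two cells, which lie below all 6. The clamp PCNA was steady, with differences of -0.19, -0.13 and -0.03. RPA2, a subunit of the single-strand binding protein, gave 0.03, -0.14 and 0.05. Its partners RPA1 (-0.39, -0.35 and -0.16) and RPA3 (-0.74, -0.85 and -0.71) were below all 6 libraries in every cell, without passing the test (adjusted p = 0.0553 and 0.0789). The clamp loader subunit RFC2 gave 0.15, -0.42 and 0.40.

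The 3 listed nucleotide supply genes, TYMS, RRM1 and RRM2, stayed within 0.5 of the mean in every cell and did not move together. TYMS, thymidylate synthase, was at 239, 188 and 182 CPM in the cells beside 187 to 226 CPM in the 6 libraries, differences of 0.22, -0.13 and -0.18. RRM1, the large subunit of ribonucleotide reductase, gave -0.43, -0.05 and 0.16, and RRM2 gave -0.19, 0.28 and 0.08. Per length, the ratio of RRM2 to RRM1 was 1.81 to 2.11 in the 6 libraries and 2.34, 2.51 and 1.87 in the cells. All 3 lay outside the range of the 6 libraries in Single Cell Rep 1, TYMS above it and both RRM1 and RRM2 below it.

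TIPIN, which forms the fork protection complex with TIMELESS, varied most within the checkpoint genes. It was at 49.2, 139 and 49.7 CPM in the cells and at 68.3 to 86.1 CPM in the 6 libraries, differences of -0.65, 0.84 and -0.64. TIMELESS gave -0.40, -0.42 and 0.25, so the partners lay on the same side of the mean in Single Cell Rep 1 and on opposite sides in the other two cells. CLSPN was below the 6 libraries in each cell, by -0.41, -0.14 and -0.12. DTL, which directs CDT1 to degradation, stood apart below in Single Cell Rep 2 by -0.54.

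The DNA repair genes had 5 of 5 differences above 0 in Single Cell Rep 2, beside 2 of 5 and 3 of 5 in the other cells. EXO1 was at 134, 172 and 115 CPM beside 99.0 to 115 CPM, and stood apart above in Single Cell Rep 2 by 0.66. UNG, the glycosylase that removes uracil from DNA, was at 31.1, 55.6 and 65.7 CPM beside 35.3 to 49.0 CPM, and was the only S phase gene standing apart above in Single Cell Rep 3, by 0.62. BLM, the Bloom helicase, stood apart below in Single Cell Rep 1 by -0.74.

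Genes of histone supply and chromatin had 0 of 10 differences above 0 in Single Cell Rep 3, with a median of -0.40, and 7 of 10 in Single Cell Rep 2, with a median of 0.13. SLBP, which binds the stem-loop of histone mRNA, was at 188, 210 and 120 CPM beside 184 to 204 CPM, and stood apart below in Single Cell Rep 3 by -0.69. CDCA7 stood apart below in the same cell by -0.84. CASP8AP2 (0.73), CHAF1B (0.61), a subunit of the chromatin assembly factor CAF-1, and UBR7 (0.54) stood apart above in Single Cell Rep 2. WDR76 was at 70.5, 39.8 and 83.1 CPM beside 85.9 to 92.1 CPM, and stood apart below in Single Cell Rep 2 by -1.17, in the cell where most of this role was above the mean. ATAD2 stood apart below in Single Cell Rep 1 by -0.52. The replication-dependent histone models summed to 10560, 15010 and 15120 CPM in the cells and to between 10260 and 12220 CPM in the others. Single Cell Rep 2 and Rep 3 thus had similar histone sums, with SLBP above all 6 libraries in Rep 2 and below them in Rep 3.

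Cyclin E2 and E2F8 were the cycle control genes of the list. CCNE2 was at 10.4, 14.4 and 4.31 CPM in the cells and at 15.8 to 24.8 CPM in the 6 libraries, differences of -0.89, -0.42 and -2.15. E2F8, an atypical E2F that represses E2F targets, was at 41.7, 73.3 and 38.7 CPM beside 58.4 to 74.2 CPM, differences of -0.62, 0.19 and -0.73. Both were below the 6 libraries in Single Cell Rep 1 and Rep 3.

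**Figure D3:**
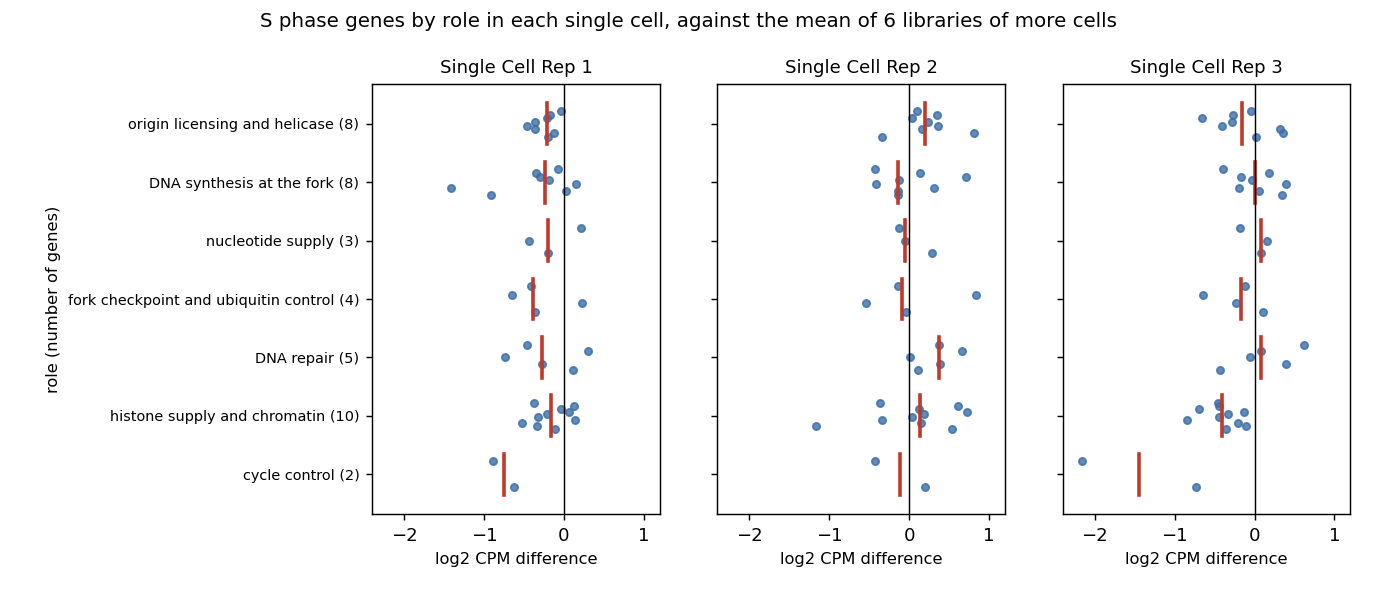
Difference in log2 CPM (horizontal axis) of each S phase gene from the mean of the 6 libraries of more cells, by role (vertical axis) and single cell (panels); points are genes and red bars role medians. In Single Cell Rep 2 the origin licensing (0.20), repair (0.38) and histone (0.13) medians are above 0, and in Single Cell Rep 3 the histone median is -0.40 and the cycle control median -1.44.

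Another 71 replication genes, listed by function, had a median difference of -0.06, 0.11 and -0.14 in the 3 cells, beside -0.07, -0.08 and -0.11 over all tested genes. In the test of single cells against the 6 libraries, 1 of 71 was called higher and 1 lower, beside 2.22% and 4.45% of all tested genes. TICRR, which helps to fire origins, was at 258, 316 and 289 CPM in the cells and at 196 to 230 CPM in the others (log2 fold change 0.44, SE 0.0818, adjusted p = 0.0192). RNASEH2A, a subunit of RNase H2, was at 46.5, 45.0 and 34.0 CPM in the cells and at 56.0 to 67.4 CPM in the others (log2 fold change -0.55, SE 0.133, adjusted p = 0.0342). Both calls were lost without 100 Cell Rep 2, without 1000 Cell Rep 1 or without 1000 Cell Rep 2, with adjusted p between 0.0623 and 0.0887, and that of RNASEH2A also without 10 Cell Rep 2 (0.0550) or 100 Cell Rep 1 (0.0622).

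Among these genes the G1/S regulators had 0 of 11 differences above 0 in Single Cell Rep 3, with a median of -0.49, and 8 of 11 in Single Cell Rep 2, with a median of 0.15. CCNE1, cyclin E1, was at 26.9, 48.2 and 8.05 CPM in the cells and at 20.4 to 29.6 CPM in the 6 libraries, so it stood apart above in Single Cell Rep 2 by 0.90 and below in Single Cell Rep 3 by -1.67, as CCNE2 did in the latter. E2F1, an activator of S phase genes, was at 19.9, 39.2 and 16.2 CPM beside 27.9 to 38.3 CPM, and stood apart below in Single Cell Rep 3 by -0.98.

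Single members of other complexes also stood apart. TK1, the cytosolic thymidine kinase, was at 36.6, 42.3 and 9.54 CPM beside 28.9 to 44.4 CPM, and NME1, a nucleoside diphosphate kinase, at 26.5, 28.7 and 74.5 CPM beside 28.1 to 37.1 CPM, so the supply genes of Single Cell Rep 3 differed in both directions (-1.92 and 1.17). ORC1, the largest origin recognition subunit, was at 158 CPM in Single Cell Rep 1 beside 66.3 to 90.5 CPM, and in Single Cell Rep 2 all 6 ORC genes were above the mean. CDC7, the kinase that fires origins, gave 0.81 in Single Cell Rep 3, and RFC5 gave -1.20 there. POLD4 was at 0.0196 CPM in Single Cell Rep 2 beside 1.74 to 4.16 CPM, the largest difference of the list (-5.61) on its lowest levels. RAD17, a checkpoint clamp loader, gave 0.65 in Single Cell Rep 1, and the histone chaperones ASF1A and ASF1B gave 0.57 in Single Cell Rep 2 and 0.60 in Single Cell Rep 3.

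Read beside the 54 G2/M phase genes, the cells formed 3 different pairs of medians. The G2/M median was -0.25 in Single Cell Rep 1, -0.28 in Single Cell Rep 2 and 0.17 in Single Cell Rep 3. Single Cell Rep 1 was therefore low in both lists, Single Cell Rep 2 high in S phase genes and low in G2/M genes, and Single Cell Rep 3 the reverse. Summed over the list, S phase genes took 6424, 8022 and 6682 CPM in the cells and 7307 to 7721 CPM in the 6 libraries, so the cells lay outside that range on both sides.

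**Figure D4:**
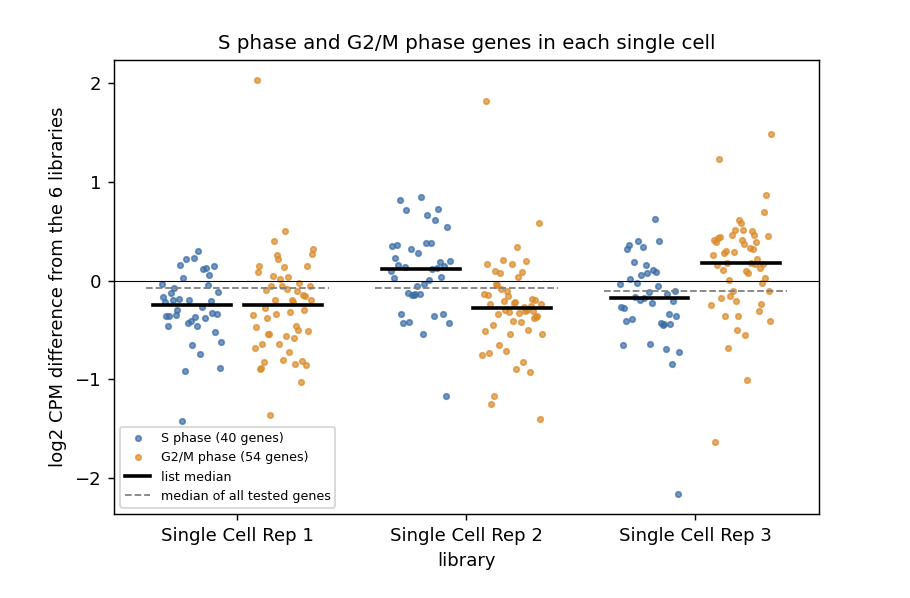
Difference in log2 CPM (vertical axis) of the 40 S phase and 54 G2/M phase genes from the mean of the 6 libraries of more cells, in each single cell (horizontal axis); points are genes, black bars list medians and dashed lines the median of all 15603 tested genes. The S phase medians are -0.24, 0.12 and -0.17 and the G2/M medians -0.25, -0.28 and 0.17.

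S phase genes varied more between single cells than between libraries of more cells, as did other genes. The median SD of log2 CPM over the 40 genes was 0.350 among the 3 single cells, 0.0907 at 10 cells, 0.0816 at 100 cells and 0.0331 at 1000 cells. Over all tested genes at 10 CPM or more it was 0.400, 0.111, 0.104 and 0.0447. For 36 of the 40 genes (90%) the SD between single cells exceeded that over the 6 libraries, beside 91.4% of all tested genes at 10 CPM or more. In pairs of cells the median SD of the S phase genes was 0.213 between Single Cell Rep 1 and Rep 3, 0.344 between Rep 1 and Rep 2 and 0.342 between Rep 2 and Rep 3, beside 0.438, 0.408 and 0.432 for all tested genes, so without Single Cell Rep 2 the spread of the list was 0.213.

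**Figure D5:**
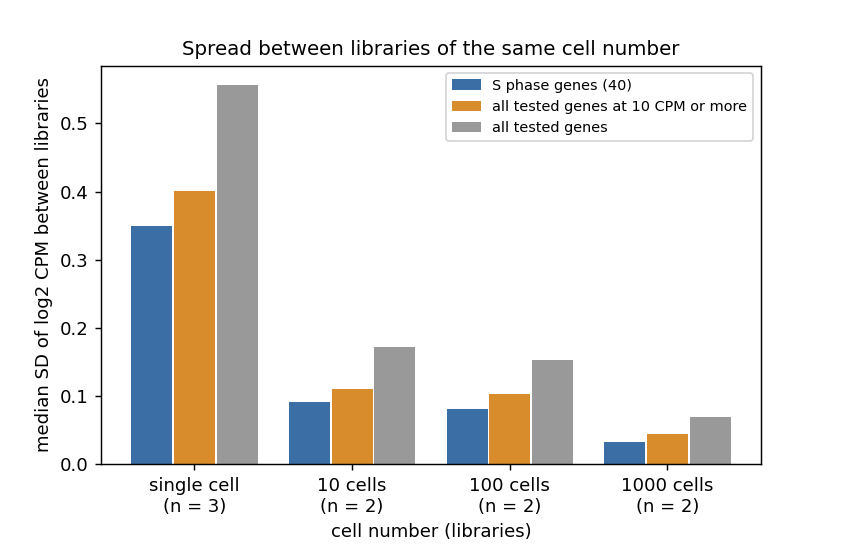
Median SD of log2 CPM (vertical axis, from 0) between libraries of the same cell number (horizontal axis, n libraries each), for the 40 S phase genes, all tested genes at 10 CPM or more and all tested genes. The S phase bar falls from 0.350 at 1 cell to 0.0331 at 1000 cells and is the lowest of the 3 bars at each cell number.

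The highest cell exceeded the lowest by 3.34-fold for CCNE2, 3.32-fold for DSCC1, 2.82-fold for TIPIN and 2.38-fold for FEN1. At the other end, NASP differed by 1.07-fold between cells, MCM2 by 1.10-fold, PCNA by 1.12-fold and RPA2 by 1.14-fold. NASP therefore combined the only difference from the larger libraries that edgeR called with the smallest range between cells. These traits are linked, because the test weighs a difference against the spread between libraries. A level above all 6 libraries in 1 cell and below all 6 in another was seen for 24 of the 40 genes (60%), MCM4, MCM6, CDC6 and TIPIN among them, beside 43.0% of all tested genes.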

How the data were processed

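The authors used Trim Galore 0.6.7 for trimming and HISAT2 2.2.1 for alignment to hg38, and counted reads over exons with featureCounts of Subread 2.0.6 at strand setting 2, without reads mapped to several places. The deposited values are raw counts of single reads per gene model, without molecular identifiers, so precision covers counting error only, and duplicated genes are undercounted. The annotation release is not given in the sources used here. The labels give 0.4 µl of DNase per library, whereas the study's methods give another volume for 1000 cells.

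In R 4.3.3, library sizes were scaled with TMM. A prior count of 2 entered the log2 CPM. After filterByExpr, genes were tested with the quasi-likelihood test of edgeR 4.0.16, with Benjamini-Hochberg adjustment over all genes tested and a threshold of 0.05. Comparisons were single cells against the other 6 libraries, and 1, 10 and 100 cells each against 1000 cells. Each cell's log2 CPM was also set against the mean of the 6 libraries. The test was checked on simulated counts. The genes and lists were chosen with earlier results of these data known. Named were all genes that passed, all MCM, fork synthesis and nucleotide supply genes, up to 5 genes standing apart in each direction per cell, the highest and lowest levels per length and, of the other replication genes, those called and the 2 of largest difference per role. MCM3, MCM7, TIMELESS, POLA2, PRIM2, RPA1, RPA3, the GINS and ORC genes, ATAD2, BRIP1, CHAF1B, UBR7, CDC6, CDC45, GMNN and CLSPN fall outside this rule and were named after their values were seen. Alternatives were RLE scaling, DESeq2 1.42.0, other filters and prior counts, thinning, a replicate block, 1 fit of all 4 cell numbers and leaving out each library.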

Additional observations from a re-analysis of the deposited data

Results flagged for a closer look

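Among the 6 libraries of more cells, 9 of 40 S phase genes had 1 library far from the other 5, by a gap to the nearest library that, as a share of the whole range, exceeded Dixon's 95% critical value for 6 samples on the log2 CPM scale. This is 22.5% of the list, beside 10.9% of all tested genes and 10.1% of those at 10 CPM or more. On the CPM scale, tried after seeing the data, 7 of the 9 exceeded it (17.5% of the list, beside 10.5% of all), and MCM2 (0.619) and CDC45 (0.602) did not. Chance flags about 1 in 20 groups, and the 6 libraries mix 3 cell numbers. 100 Cell Rep 1 was the lowest library for 4 genes. MCM2 was at 372 CPM there beside 414 to 439 CPM in the others, a gap of 0.638 of the log2 range. CDC6 was at 128 beside 148 to 161 CPM (0.653), CDC45 at 80.2 beside 96.0 to 107 CPM (0.635), and USP1, the deubiquitinase of PCNA, at 172 beside 191 to 198 CPM (0.728).

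10 Cell Rep 1 was the lowest library for EXO1, at 99.0 CPM beside 109 to 115 CPM (0.650), UHRF1, at 224 beside 252 to 258 CPM (0.849), and ATAD2, at 384 beside 412 to 425 CPM (0.699). 10 Cell Rep 2 was the highest for MCM4, at 705 beside 638 to 660 CPM (0.666), and the lowest for RFC2, at 44.0 beside 51.0 to 54.3 CPM (0.705). What sets these libraries apart was not tested.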

How the results depend on the processing

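The median log2 fold change of the S phase genes between single cells and the 6 libraries, whose alternatives were added after seeing the data, changed sign to 0.0057 without Single Cell Rep 1, and lay between -0.19 and 0.0057 over the fits that left out a library. Without a filter it was -0.10 and that of all genes -0.12. None of the other results recomputed changed sign. In single cells against the 6 libraries, DESeq2 called 1 S phase gene higher and 4 lower, beside 6.8% and 9.83% of all tested genes. The replicate block gave 2 and 3, beside 5.06% and 8.25% of all, and 1 fit of 4 cell numbers gave 0 lower, beside 0% of all. Leaving out a library gave between 0 and 3 higher and between 0 and 12 lower, beside 0% to 8.48% and 0% to 11.3% of all. Of the other replication genes, 2 were called higher with RLE size factors, beside 2.49% of all tested genes. DESeq2 and the replicate block each called 4 of them higher and 5 lower, and 1 fit of 4 cell numbers 0 and 0. Leaving out a library gave between 0 and 6 higher and between 0 and 9 lower of these genes. The shares of all tested genes in these fits are those given for the S phase genes. Over all tested genes, 1041 were called, beside 2595 with DESeq2, 2077 with the block, 682 without a filter, 576 at 10 CPM or more in 2 libraries and 0 in 1 fit of 4 cell numbers, where NASP had an adjusted p of 0.0973, TICRR 0.103 and RNASEH2A 0.113. The cause of these changes was not tested.

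Same-numbered libraries did not deviate together: correlations of their deviations from the group means lay between -0.04 and 0.05, so the numbers were not taken as pairs and the block values are given only here.

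DESeq2 called 1 S phase gene lower in single cells against 1000 cells, and leaving out a library there gave 0. Over all tested genes the 0 calls became 49 with DESeq2 and 5 with the block for single cells, 194, 55, 123 (no filter) and 9 (10 CPM) for 10 cells, and 1, 20 and 31 (no filter) for 100 cells against 1000 cells. Leaving out a library gave 0 to 4 higher and 0 to 14 lower for 10 cells against 1000 cells, and 0 to 3 higher and 0 to 13 lower for 100 cells against 1000 cells. With a difference of more than 1 for standing apart, 1 gene stood below in Single Cell Rep 1, 0 above and 1 below in Rep 2, and 0 above and 1 below in Rep 3. The share of all tested genes at that setting was not computed. The median SD between single cells was 0.213 to 0.344 without 1 cell. Leaving out 1 of the 6 libraries kept each cell's median between -0.26 and -0.23, 0.10 and 0.12, and -0.19 and -0.15.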
